A study of Drosophila melanogaster with 12 samples.

Results

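The transcriptional response to phenobarbital was examined in flies carrying a mutation of DHR96. It was measured on 6 of the 12 oligonucleotide arrays of the study, chosen by the short names in the sample titles: 3 arrays of DHR96 mutant flies given sucrose with 0.3% phenobarbital and 3 arrays of DHR96 mutant flies given sucrose alone. All flies had been starved overnight before the diet. The other 6 arrays, 3 of wild-type flies on each diet, entered the same statistical model. Their scatter therefore shares in every standard error and p-value given for the mutant. Wild-type levels are used only for Hr96 and for the comparison at the end. Wild type is Canton S, a common laboratory strain. The titles carry E25 for the mutant, which was read as DHR96 by elimination because the study names no other mutant. The labels do not describe the allele, the sex of the flies or the length of exposure. Each array measured total RNA of adult flies. Separate cultures behind the arrays of a group are not mentioned in the labels, so p-values reflect only how far these arrays scatter, and that scatter may be technical.

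Phenobarbital, a barbiturate, is the classic drug for inducing detoxification enzymes. In vertebrates it acts through nuclear receptors that switch on cytochrome P450 genes, and DHR96, encoded by Hr96, is the fly relative of those receptors. Detoxification is usually described in steps: P450s and other oxidising or hydrolysing enzymes add or expose a reactive group, transferases then attach glutathione, a sugar, a sulfate or a phosphate, and membrane transporters export the product. The design asks how the mutant responds to the drug when this receptor is altered.

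Hr96 itself was read first, as a check of the labels. Its log2 intensity was 10.23, 10.18 and 10.30 on the 3 phenobarbital arrays, against 10.06, 9.99 and 9.91 on the 3 sucrose arrays. The phenobarbital arrays were slightly higher without overlap, but the log2 change of 0.25 ± 0.14 (SE) was not called (adjusted p = 0.406). In wild type the same probe set averaged 8.53 ± 0.29 on phenobarbital and 8.39 ± 0.17 on sucrose (SD, n = 3 each). The transcript was thus present, and higher, on the arrays labelled mutant, and its level does not show whether the receptor worked.

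Levels below are log2 intensities and are listed in the order of the replicate numbers. Changes are differences of mean log2 intensity, phenobarbital minus sucrose, with their standard error. A gene is said to have risen or fallen when its probe set changed at least 1.5-fold with an adjusted p under 0.05 (limma, Benjamini and Hochberg over all 18769 probe sets). A level under 4 is called dim, and folds measured against such a level rest on how the normalization modelled background. For pairs of replicate arrays, log2 differences over all probe sets had an SD of 0.237 to 0.341 on phenobarbital and 0.287 to 0.431 on sucrose.

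On phenobarbital, 579 probe sets were called higher and 288 lower in the mutant, which is 3.08% and 1.53% of those tested and 4.62% together. Among the 11982 genes with a name, 512 rose (4.27%) and 264 fell (2.20%). The median change over all these genes was 0.006. The deposited values had already been put on one scale, so this median cannot show whether RNA as a whole shifted. Rises had a median of 2.24-fold, with 114 genes at 4-fold or more and 30 at 16-fold or more. Falls had a median of 2.67-fold, with 62 genes at 4-fold or more and 11 at 16-fold or more. Of the genes that rose, 48 were dim on sucrose, and of those that fell, 25 were dim on phenobarbital. For scale, 20.3% of named genes lay higher on all phenobarbital arrays than on all sucrose arrays, and 15.1% lay lower. The number of falls depended on single arrays: it dropped to 161 of the named genes when one mutant array was left out, and ranged up to 305. The lowest counts of fallen probe sets, 176 and 177 in place of 288, came without sucrose replicate 3 and without phenobarbital replicate 3, and 186 were called without sucrose replicate 1. Rises ranged from 423 to 472 named genes when one mutant array was left out.

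**Figure D1:**
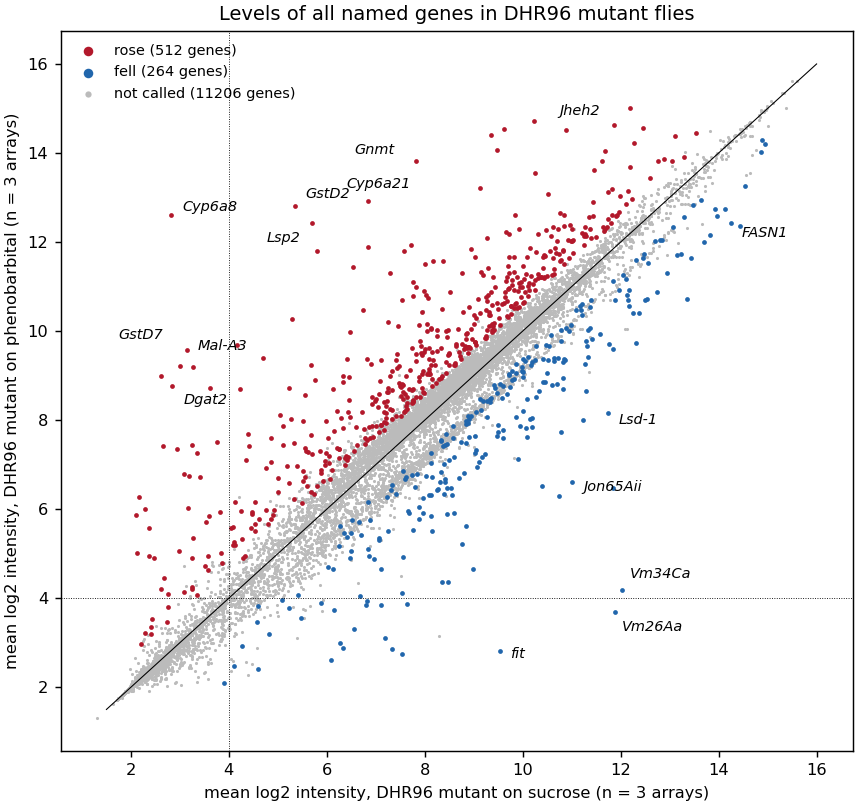
Mean log2 intensity of 11982 named genes in DHR96 mutant flies on phenobarbital (vertical axis) and on sucrose (horizontal axis), 3 arrays each. Red points are the 512 genes that rose and blue points the 264 that fell, the solid line marks equal levels, and the dotted lines mark the dim limit of 4; Cyp6a8 lies farthest above the line, and Vm26Aa, Vm34Ca and fit lie farthest below it.

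The 6 arrays also differed in transcripts of the reproductive organs, and these values stand beside all that follows. Summed over 28 genes of the male accessory gland, the log2 level was 17.22, 17.11 and 16.45 on the phenobarbital arrays, against 18.10, 17.70 and 18.25 on the sucrose arrays. Every phenobarbital array was lower than every sucrose array. Over 28 testis genes it was 15.59, 15.49 and 14.92 on phenobarbital, against 16.15, 15.72 and 16.45 on sucrose, again without overlap. Phenobarbital replicate 3 and sucrose replicate 2 were the lowest of their groups in both male lists. Over 38 genes of the germ line the order ran the other way, with 15.71, 15.74 and 16.10 on phenobarbital and 15.63, 15.88 and 15.39 on sucrose, which overlapped. Over 17 eggshell genes the summed level overlapped as well, at 13.69, 14.998 and 14.55 on phenobarbital and 15.56, 15.39 and 14.48 on sucrose. Transcripts of both sexes were present, since accessory gland and eggshell lists were each far above the dim limit on the sucrose arrays. In RNA of whole flies, fewer cells of a type and less RNA per cell cannot be told apart. Without phenobarbital replicate 3 and sucrose replicate 2, a check added after the data were seen, 380 named genes rose and 183 fell; the part of this difference in the other results was otherwise not tested.

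**Figure D2:**
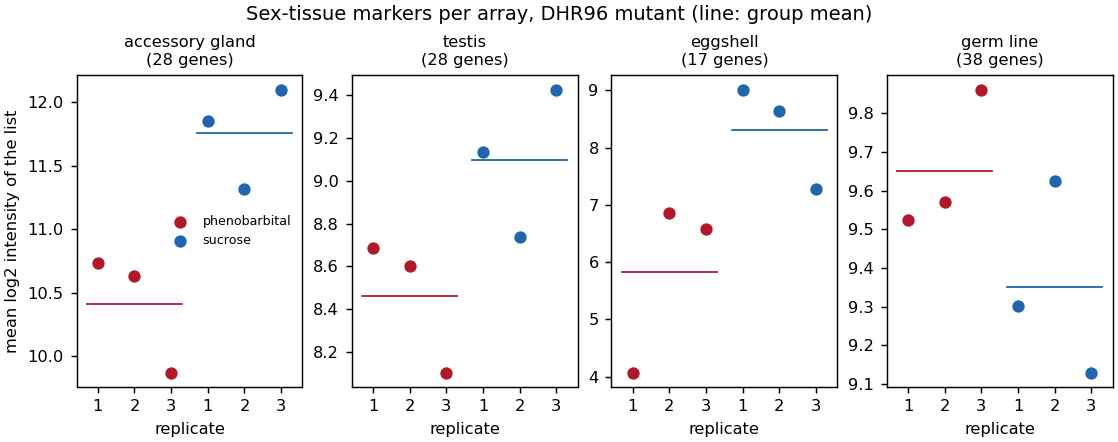
Mean log2 intensity of 4 lists of sex-tissue markers (vertical axes) on each DHR96 mutant array by replicate number (horizontal axes), phenobarbital left in red and sucrose right in blue, with a line at each group mean. The phenobarbital arrays lie below all sucrose arrays for accessory gland, testis and eggshell genes on this mean of log2 values and overlap with them for germ-line genes; on the summed level, which bright genes dominate, the eggshell groups overlap too.

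Cytochrome P450s of the CYP3 clan, which includes most insect P450s known to metabolise drugs and insecticides, held the largest single change. Of 37 measured genes 21 rose and none fell, with a median change of 1.02 over the list, against 0.006 over all genes. Between 18 and 20 of them rose when any one mutant array was left out. Cyp6a8 had a log2 intensity of 12.41, 12.81 and 12.62 on phenobarbital, against a dim 2.73, 2.91 and 2.83 on sucrose. No named gene changed more: the change was 9.79 ± 0.11, or 883-fold (adjusted p = 3.63e-10). Its neighbour Cyp6a21 stood at 13.03, 13.02 and 12.74 on phenobarbital and at 6.87, 6.81 and 6.84 on sucrose, where it was well above the dim limit, and rose 68.2-fold (adjusted p = 1.23e-07). Cyp6a2, a P450 able to metabolise insecticides, reached 14.65, 14.72 and 14.76 on the phenobarbital arrays, against 10.51, 10.03 and 10.14 on the sucrose arrays. That places Cyp6a2 among the brightest probe sets of treated flies, with a change of 4.48 ± 0.15 from a level that was already high. Cyp6w1 rose to 14.41, 14.46 and 14.37 on phenobarbital, against 9.59, 9.10 and 9.39 on sucrose, a 33.3-fold change. Cyp309a1 gave 9.26, 9.28 and 9.01 on phenobarbital and a dim 3.44, 3.22 and 3.16 on sucrose, 60.2-fold apart. In each of these genes the arrays of a group lay close together and far from the other group.

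The remaining CYP3 genes moved less. Cyp6g1, whose overexpression is known to give resistance to DDT, changed by 2.17 ± 0.13, with 13.61, 13.64 and 13.62 on phenobarbital against 11.50, 11.33 and 11.54 on sucrose. Cyp6a23, Cyp6a14 and Cyp6d5 rose by 2.91, 3.02 and 2.82 on the log2 scale. The smallest rises of the clan were in Cyp6a9 (0.73 ± 0.18) and Cyp6a18 (0.79 ± 0.11). Cyp6d2 (1.09 ± 0.32, adjusted p = 0.106) and Cyp9c1 (0.74 ± 0.29, adjusted p = 0.224) pointed upwards but did not pass. Cyp6a17 (0.00 ± 0.02) and Cyp6g2 (0.00 ± 0.01) stayed at one level on both diets, and 9 genes of the clan were dim in both groups. These smaller members were chosen after their values were seen, apart from Cyp6g1.

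In the CYP4 clan, whose members act on fatty acids, hydrocarbons and other lipids as well as drugs, the response was mixed: 10 of 32 genes rose, 3 fell, and the median change was 0.002. Cyp4d14 had 9.70, 9.82 and 9.52 on phenobarbital, against 4.19, 4.63 and 3.68 on sucrose, and rose 45.8-fold (adjusted p = 0.000388). Cyp4e3 and Cyp4d1 followed, with 8.89, 8.86 and 8.37 and 7.41, 7.42 and 7.53 on phenobarbital, and changes of 4.48 ± 0.30 and 4.21 ± 0.42, the second from a dim level on sucrose. Cyp4e2 was bright on both diets and varied little between arrays, at 13.79, 13.84 and 13.85 on phenobarbital and 11.59, 11.52 and 11.75 on sucrose. Cyp313a1 fell to 10.19, 9.81 and 9.16 on phenobarbital, against 11.85, 11.60 and 11.84 on sucrose (change -2.04 ± 0.27, adjusted p = 0.00183). All phenobarbital arrays were below all sucrose arrays for this gene. Cyp4d21, a sex-biased P450, fell by 3.29 on the log2 scale but lost its call when sucrose replicate 3, phenobarbital replicate 2 or phenobarbital replicate 3 was left out. Cyp4ad1, the third that fell, lost its call without sucrose replicate 1 or 3 or phenobarbital replicate 2 or 3. Cyp4g1, the oenocyte enzyme that makes cuticular hydrocarbons, changed by -0.36 ± 0.06, under the 1.5-fold minimum.

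Of 11 mitochondrial P450s 4 rose, all of the Cyp12 family, and none fell (median change 0.58), while 4 were dim on both diets. Cyp12d1-d, linked to insecticide resistance, had 6.91, 6.56 and 6.75 on phenobarbital, against a dim 3.15, 3.43 and 3.0 on sucrose, and rose 11.7-fold. It has a near-identical copy in some strains, so its signal may combine both. Cyp12a5 (1.95 ± 0.17), Cyp12c1 (1.48 ± 0.23) and Cyp12a4 (1.01 ± 0.14) rose less. The mitochondrial P450s of ecdysteroid synthesis, dib (0.00 ± 0.02), sad (-0.02 ± 0.02) and shd (-0.05 ± 0.03), gave no call. Of the 6 genes of the CYP2 clan none was called, and the highest change among them was 0.01.

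Of 4 genes listed under electron supply to P450s 3 rose and none fell (median change 0.95). They are Cyt-b5, Cyt-b5-r, Fdx1 and Fdx2, so the list does not cover that supply as a whole. Cytochrome b5 (Cyt-b5), an electron carrier of the endoplasmic reticulum, had 14.39, 14.39 and 14.39 on phenobarbital, against 13.16, 13.05 and 13.08 on sucrose. The treated arrays agreed to the second decimal, and the change was 1.29 ± 0.06 (adjusted p = 4.1e-06). Cyt-b5-r, a cytochrome b5-related protein, rose 2.75-fold. The mitochondrial ferredoxin gene Fdx2 passed at 1.53-fold and lost its call without sucrose replicate 3, while Fdx1 changed by 0.14 ± 0.13 and was not called. Of 8 genes of heme synthesis and breakdown only Alas, the first enzyme of heme synthesis, rose: 12.56, 12.69 and 12.57 on phenobarbital against 11.81, 11.79 and 11.86 on sucrose, 1.72-fold. It no longer passed without both arrays lowest in male markers.

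**Figure D3:**
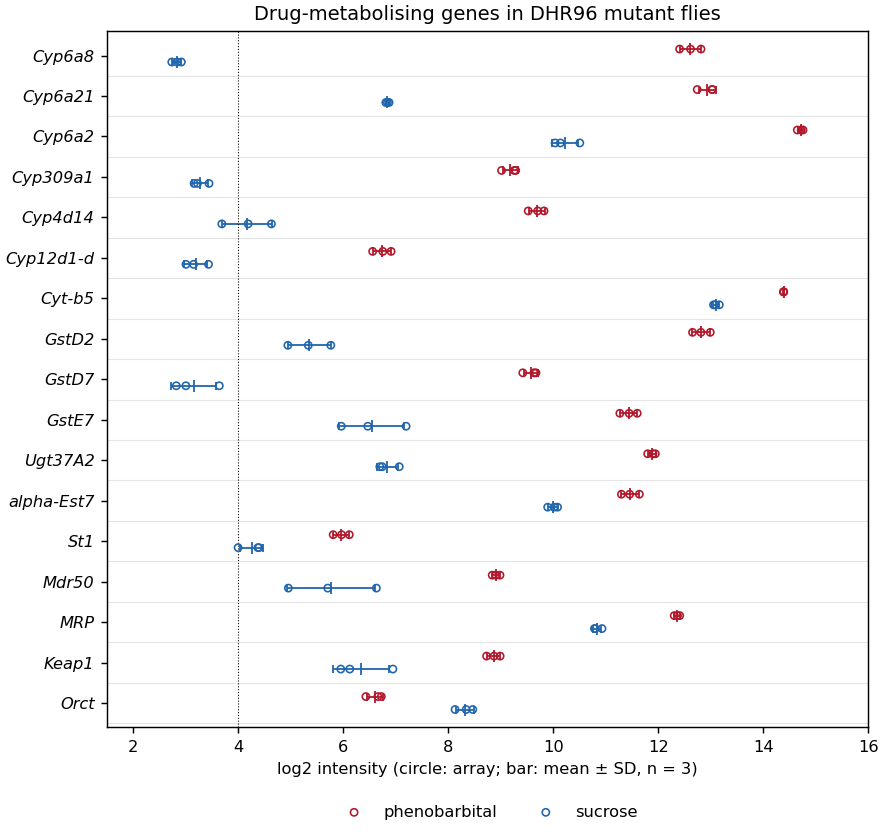
Log2 intensity (horizontal axis) of 17 genes of drug metabolism, export and stress sensing in DHR96 mutant flies, phenobarbital in red above sucrose in blue. Circles are arrays, bars are the mean ± SD of 3 arrays and the dotted line is the dim limit. Groups overlap in none of the 17, and only Orct is lower on phenobarbital. The genes were picked with results of these data known. No gene that rose or fell has overlapping groups, so the lack of overlap here is no separate evidence. Over all named genes, 20.3% lay higher on every phenobarbital array and 15.1% lower.

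Glutathione S-transferases, which attach glutathione to reactive compounds, rose in each of their main classes. In the delta class 5 of 11 genes rose and none fell (median change 0.92). GstD2 stood at 12.99, 12.81 and 12.65 on phenobarbital, against 5.76, 5.33 and 4.94 on sucrose, the second largest rise of all named genes (178-fold, adjusted p = 4.18e-07). GstD7 had 9.63, 9.67 and 9.42 on phenobarbital, against a dim 3.0, 2.82 and 3.64 on sucrose, and rose 85.8-fold. GstD1, the abundant member of the class, was near the top of the scale on both diets, at 14.41, 14.46 and 14.48 on phenobarbital and 13.53, 13.70 and 13.38 on sucrose. Its change of 0.92 ± 0.10 was small beside those of GstD2 and GstD7. GstD8 passed by 1.33 on the log2 scale but lost its call in most repeats that left out an array. GstD10 (0.58 ± 0.17) and GstD4 (0.03 ± 0.04) were not called.

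In the epsilon class 6 of 13 genes rose and GstE10 fell (median change 0.78). GstE3 had 13.23, 13.30 and 13.09 on phenobarbital, against 9.28, 8.85 and 9.23 on sucrose, a 17-fold rise. GstE7 had 11.27, 11.60 and 11.44 on phenobarbital, against 7.20, 6.47 and 5.96 on sucrose, with wider spread on sucrose and a 29.8-fold rise. GstE6, GstE1, GstE5 and GstE9 rose by 3.54, 2.80, 2.74 and 1.55 on the log2 scale. GstE10 went against the class, with 6.33, 6.6 and 6.58 on phenobarbital below 7.96, 7.78 and 7.64 on sucrose (change -1.29 ± 0.20, adjusted p = 0.00397). Among 12 transferases of other classes 4 rose: GstT4 by 1.11, GstO3 by 1.0, GstO2 by 0.91 and the microsomal Mgstl by 0.75 on the log2 scale. GstO3 lost its call without sucrose replicate 3 or phenobarbital replicate 2. Mgstl and GstO2 each have another probe set that was not called, dim in the case of GstO2.

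UDP-glycosyltransferases attach sugars to drugs and hormones. Of 35 measured genes 13 rose and none fell, with a median change of only 0.20, and 14 were dim in both groups. Ugt37A2 had 11.80, 11.90 and 11.94 on phenobarbital, against 7.07, 6.74 and 6.70 on sucrose, and rose 33-fold (adjusted p = 6.28e-07). Ugt35C1 had 10.21, 10.37 and 10.23 on phenobarbital and 5.52, 4.61 and 5.74 on sucrose, a 31.6-fold rise with a wider spread on sucrose. Ugt302E1 and Ugt37B1 rose 15.3-fold and 13.5-fold from dim levels. The rise was uneven within subfamilies: of their closest relatives by name, Ugt37A1 and Ugt35B1 were dim on both diets and changed by 0.01 ± 0.02 and -0.01 ± 0.02.

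Carboxylesterases hydrolyse ester bonds of drugs, insecticides and lipids. Of 14 measured genes 7 rose and none fell, and the same count was reached without any one mutant array. Glt, a basement membrane protein related to esterases, rose most, with 10.92, 10.97 and 10.73 on phenobarbital and 9.34, 9.49 and 9.20 on sucrose (2.89-fold). Of the alpha-esterase cluster, alpha-Est7, whose blowfly counterpart gives resistance to organophosphates, had 11.64, 11.46 and 11.30 on phenobarbital, against 10.08, 9.89 and 10.02 on sucrose. Its groups were well apart (2.77-fold, adjusted p = 0.000787). alpha-Est10 and alpha-Est5 rose 2.69-fold and 2.46-fold, whereas alpha-Est2 (0.00 ± 0.02) and alpha-Est9 (-0.34 ± 0.16) were not called. Of 5 genes of sulfate transfer, the sulfotransferase St1 rose 3.27-fold, with 6.11, 5.97 and 5.81 on phenobarbital and 4.37, 3.99 and 4.39 on sucrose. St3 passed at 2.38-fold and lost its call when any one mutant array was left out. Among 6 redox enzymes of alcohols, aldehydes and carbonyls, the sorbitol dehydrogenase Sodh1 rose 10.6-fold to 11.87, 11.60 and 11.25 on phenobarbital, against 7.91, 7.91 and 8.67 on sucrose. Its relative Sodh2 and the carbonyl reductase sni rose 2.15-fold and 1.88-fold, and no gene of the list fell.

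The EcKL family of kinase-like genes is related to choline kinases, and members have been linked to phosphate conjugation of ecdysteroids and drugs. Of 45 measured members 19 rose and 3 fell (median change 0.51). CG6908 was among the brightest probe sets of treated flies, at 14.49, 14.59 and 14.53 on phenobarbital against 9.76, 9.36 and 9.76 on sucrose, a 30-fold rise (adjusted p = 7.27e-07). CG31104, CG16898 and CG13659 rose by 3.51, 3.49 and 2.95 on the log2 scale. CG11892 moved as far in the opposite direction, with 7.50, 6.19 and 5.74 on phenobarbital and 11.81, 11.60 and 12.12 on sucrose (-5.36 ± 0.52, adjusted p = 0.000267). CG10513 (-2.11 ± 0.27) and CG9259 (-1.34 ± 0.20) also fell.

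Of 14 measured transporters of the ABC type, which pump compounds out of cells, 3 rose and none fell (median change 0.08). Mdr50, a P-glycoprotein that pumps drugs out of cells, had 8.90, 8.98 and 8.84 on phenobarbital, against 5.70, 4.95 and 6.63 on sucrose. The sucrose arrays spread over more than 1 log2 unit, yet all lay far below the treated arrays (8.86-fold, adjusted p = 0.00181). MRP, which exports conjugates of glutathione, was tight on both diets, with 12.30, 12.37 and 12.41 on phenobarbital and 10.93, 10.80 and 10.78 on sucrose (2.87-fold). Mdr49 rose 2.56-fold, and Mdr65, the P-glycoprotein of the blood-brain barrier, changed by 0.45 ± 0.23 without a call (adjusted p = 0.359). Among 12 organic anion and cation transporters none rose and 3 fell (median change -0.001). The organic cation transporter Orct had 6.72, 6.66 and 6.43 on phenobarbital, against 8.34, 8.13 and 8.47 on sucrose, a 3.27-fold fall (adjusted p = 0.00103). Oatp58Db (-0.88 ± 0.13) and Oatp58Da (-0.68 ± 0.12) fell less.

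Keap1 and cnc form the sensor and the transcription factor of the pathway that answers oxidative and electrophilic stress, and glutathione is its main small-molecule product. Of 17 genes on that list 4 rose and none fell (median change 0.38). Keap1 had 8.99, 8.73 and 8.87 on phenobarbital, against 6.94, 6.12 and 5.95 on sucrose, and rose 5.75-fold (adjusted p = 0.000435). The partner cnc changed by 0.38 ± 0.06, with no overlap between groups but under 1.5-fold. Gclc, the catalytic subunit of the rate-limiting step of glutathione synthesis, moved little but tightly: 11.16, 11.21 and 11.25 on phenobarbital, against 10.44, 10.43 and 10.46 on sucrose, a 1.7-fold rise (adjusted p = 1.76e-05). Its regulatory subunit Gclm (0.16 ± 0.07) was not called. Gtpx, a glutathione peroxidase-like gene, and Prx3, a mitochondrial peroxiredoxin, rose 2.01-fold and 2.05-fold, while the superoxide dismutase Sod2 (-0.07 ± 0.13) and catalase Cat (0.52 ± 0.09) were not called. Of 7 enzymes that supply NADPH, the reductant of P450s and of glutathione recycling, 4 rose by 1.54-fold to 2.1-fold. They were Men-b, a malic enzyme, Idh, the NADP-dependent isocitrate dehydrogenase, and Pgls and Taldo of the pentose phosphate pathway; Taldo lost its call without phenobarbital replicate 1.

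**Figure D4:**
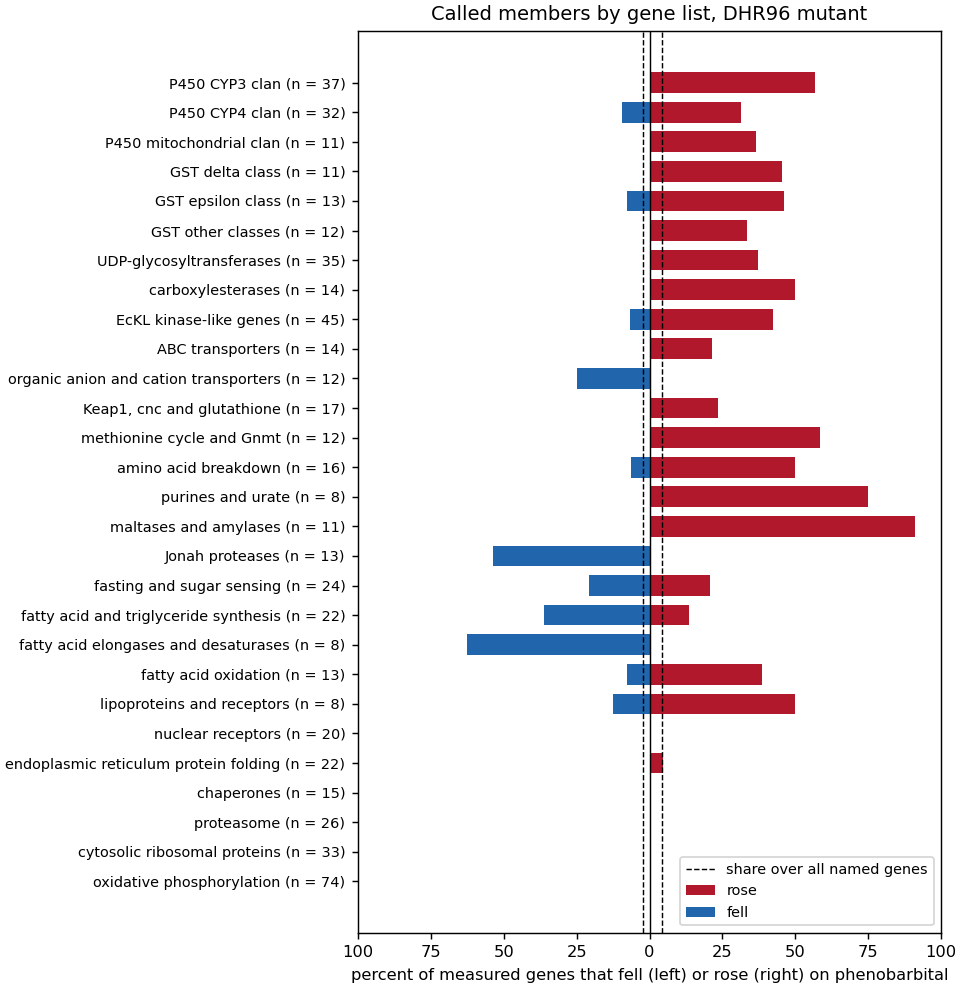
Share of measured genes of 28 lists picked after the values were seen (rows, with the number measured) that fell (blue, left) or rose (red, right) on phenobarbital in DHR96 mutant flies, in percent. The dashed lines mark the shares over all named genes, 2.20% and 4.27%; among the lists drawn, maltases, purine enzymes, methionine-cycle genes and CYP3 P450s have the largest shares of rises, elongases and Jonah proteases the largest shares of falls, and the bottom rows are empty.

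Large changes reached well beyond drug metabolism. Of 12 enzymes of the methionine cycle and the folate-bound one-carbon pool 7 rose and none fell, with a median change of 1.05. Gnmt, which uses up S-adenosylmethionine by methylating glycine, had 13.86, 13.84 and 13.75 on phenobarbital, against 8.04, 7.23 and 8.18 on sucrose (64.1-fold, adjusted p = 6.02e-05). Sardh, which breaks down the sarcosine that Gnmt makes, had 6.88, 6.83 and 6.46 on phenobarbital and a dim 3.37, 3.32 and 3.55 on sucrose (9.91-fold). Both genes of this glycine-sarcosine cycle were far apart between diets on every array. The folate enzymes pug and Shmt were bright on both diets and rose 3.87-fold and 3.29-fold, with 11.64, 11.64 and 11.71 for pug on phenobarbital and 9.70, 9.65 and 9.78 on sucrose. Nmdmc (1.38 ± 0.17), Cbs (1.14 ± 0.14) and Cth (0.97 ± 0.10), the last a pair that turns homocysteine into cysteine, rose as well. Sam-S, which makes S-adenosylmethionine, changed by 0.29 ± 0.09 and was not called. On a list of 6 glycine and threonine enzymes assembled after the values were seen, 5 rose, and Tdh and Gcat, which turn threonine into glycine, were 6.77-fold and 7.26-fold higher.

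Purine synthesis draws on the same one-carbon units and glycine. Of 8 genes of purine and urate synthesis 6 rose and none fell (median change 1.46), and the same 6-gene count was reached without any one mutant array. Gart, which carries out 3 steps of the pathway in one protein, had 10.66, 10.67 and 11.06 on phenobarbital, against 7.92, 7.82 and 7.53 on sucrose (8.23-fold, adjusted p = 1.03e-05). Pfas, Adsl and Paics rose by 1.56, 1.54 and 1.39 on the log2 scale, and Prat2, for the first committed step, by 0.95. Its paralog Prat changed by 0.13 ± 0.23 without a call. At the other end of the pathway ry, the xanthine dehydrogenase that makes urate, had 7.55, 7.56 and 7.32 on phenobarbital and 5.28, 5.35 and 5.38 on sucrose (4.42-fold).

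Of 16 genes of amino acid breakdown 8 rose and 1 fell, and the 4 enzymes of tyrosine breakdown on the list were among those that rose. This count depended on single arrays, with 5 rises left without phenobarbital replicate 1. Hpd had 11.23, 11.06 and 11.01 on phenobarbital, against 8.11, 7.26 and 7.91 on sucrose (10.1-fold, adjusted p = 0.000666). The next enzyme of the path, hgo, had 9.15, 8.93 and 8.85 on phenobarbital and 6.57, 6.13 and 6.66 on sucrose (5.74-fold). Tat, the first step, and Faa, the last, rose 2.46-fold and 2.63-fold; the call for Tat was lost without sucrose replicate 2 or 3 or phenobarbital replicate 1 or 2. Of the transaminases Got2 (1.05 ± 0.06) and Got1 (0.69 ± 0.05) rose. Glutamine synthetase 2, Gs2, fell by 0.73 on the log2 scale, and Gdh (-0.17 ± 0.04) and slgA (-0.36 ± 0.08) were not called. The call for Gs2 was lost on the 6 mutant arrays alone.

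Sugar-digesting enzymes had the largest share of rises of any list. Of 11 maltases and amylase-like genes 10 rose and none fell, with a median change of 2.5, and 10 rose in every repeat without one mutant array. Mal-A3 had 9.33, 9.60 and 9.28 on phenobarbital, against 4.24, 5.36 and 4.50 on sucrose (26-fold, adjusted p = 0.000988). Mal-B1 had 11.92, 11.88 and 11.98 on phenobarbital and 7.90, 7.80 and 7.45 on sucrose (18.5-fold). Mal-A4 and Mal-A8 were bright on sucrose already and rose 9.27-fold and 5.95-fold. The smallest rise was in Amyrel (0.76 ± 0.12), and Mal-A5 (0.15 ± 0.09) was the one gene without a call. Digestive proteases went the other way: 7 of 13 Jonah serine proteases fell and none rose (median change -0.71). Jon99Fi had 6.42, 6.55 and 5.92 on phenobarbital, against 10.98, 10.43 and 10.80 on sucrose, and was 21.7-fold lower on the drug. Jon65Aii had 6.99, 6.56 and 6.28 on phenobarbital and 10.94, 11.07 and 11.04 on sucrose (21.2-fold lower), and Jon25Bii was 9.3-fold lower. Among 13 trypsins thetaTry fell (-1.51 ± 0.11) and kappaTry rose (1.20 ± 0.23), the second not without sucrose replicate 1 or 3 or phenobarbital replicate 1 or 2. The 6 neprilysin-like peptidases that rose, of 26 on a list assembled after the values were seen, were led by Nepl17 (2.57 ± 0.34), Nepl11 (2.24 ± 0.16), Nepl18 (2.17 ± 0.39) and Nepl14 (2.02 ± 0.22).

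**Figure D5:**
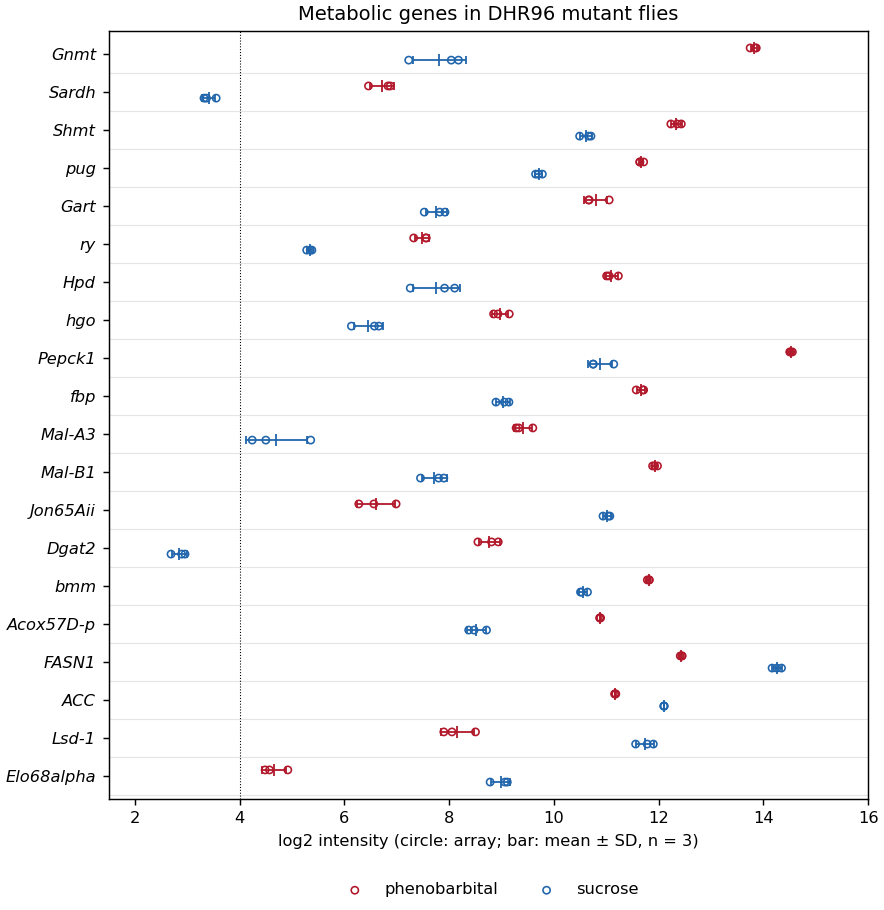
Log2 intensity (horizontal axis) of 20 metabolic genes in DHR96 mutant flies, phenobarbital in red above sucrose in blue. Circles are arrays, bars are the mean ± SD of 3 arrays and the dotted line is the dim limit; one-carbon, purine, tyrosine and gluconeogenic genes and maltases are higher on phenobarbital, and Jon65Aii, FASN1, ACC, Lsd-1 and Elo68alpha are lower.

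Genes that respond to feeding and sugar moved in both directions, 5 of 24 up and 5 down. Pepck1, which starts gluconeogenesis, had 14.55, 14.52 and 14.50 on phenobarbital, against 11.14, 10.75 and 10.75 on sucrose (12.5-fold, adjusted p = 4.18e-07). The gluconeogenic phosphatase fbp had 11.71, 11.70 and 11.57 on phenobarbital and 9.14, 8.89 and 9.05 on sucrose (6.2-fold). Both rises were many times their standard error. The insulin-responsive glucosidase tobi rose 9.9-fold and the triglyceride lipase bmm 2.38-fold. Sugar-responsive regulators fell: sug had 7.93, 8.40 and 7.73 on phenobarbital, against 9.91, 10.21 and 10.30 on sucrose (-2.12 ± 0.18, adjusted p = 0.000109). The repressor cbt (-1.19 ± 0.12) and the ligand daw (-1.21 ± 0.15) fell also. CCHa2 and AkhR, the other two that fell, lost their calls in most repeats without one mutant array, which left 3 falls. Among the genes not called were foxo (0.05 ± 0.10), Akh (0.23 ± 0.48) and Mondo (0.25 ± 0.09). Of 11 glycolysis genes the hexokinase Hex-C alone was called (1.22 ± 0.18). Tps1, which makes trehalose, and the trehalose transporter Tret1-1 fell 1.57-fold and 1.66-fold, while UGP and Pgm1, on the way to glycogen, rose 2.17-fold and 1.61-fold. UGP averaged a dim 3.54 on phenobarbital and 2.42 on sucrose. Its call was lost when any one sucrose array was left out, and also with 16 added to the intensity. Of 11 sugar transporters nebu rose 2.03-fold, and Tret1-1 and MFS1 fell. MFS1 was dim on all mutant arrays of both diets, and its call was lost with 16 added to the intensity. Of 7 lipases bmm rose and mag fell (-0.95 ± 0.21), and the call for mag was lost when any one mutant array was left out. Lsp2, which stores amino acids in the fat body, had 11.72, 11.24 and 12.46 on phenobarbital and 4.57, 5.41 and 7.45 on sucrose, far apart between groups but with a wider spread than any other of the 15 genes with the largest rises.

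Of 22 genes of fatty acid and triglyceride synthesis 3 rose and 8 fell, or 4 without both arrays lowest in male markers. FASN1, the fatty acid synthase of the fat body, had 12.41, 12.44 and 12.45 on phenobarbital, against 14.26, 14.17 and 14.35 on sucrose (3.53-fold lower, adjusted p = 8.23e-06). ACC, the enzyme just before it, had 11.17, 11.16 and 11.18 on phenobarbital and 12.10, 12.10 and 12.10 on sucrose, a change of -0.93 ± 0.07 with almost no spread between arrays. The desaturase Desat1 (-0.70 ± 0.12) and FASN3 (-0.94 ± 0.16) fell. Lsd-1, a perilipin on lipid droplets that the list also holds, had 8.05, 8.50 and 7.90 on phenobarbital against 11.78, 11.56 and 11.90 on sucrose, 12.1-fold lower. Both acyltransferases listed for the last step of triglyceride synthesis rose. Dgat2 had 8.81, 8.94 and 8.55 on phenobarbital and a dim 2.89, 2.69 and 2.96 on sucrose (60.5-fold), and mdy rose 2.98-fold. SCAP, the escort of the lipid regulator SREBP, rose 1.56-fold, while SREBP itself changed by 0.33 ± 0.09 without a call.

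On a list of 8 fatty acid elongases and desaturases assembled after the values were seen, 5 fell and none rose (3 to 5 without one mutant array). Elo68alpha, an elongase of the male pheromone path, had 4.92, 4.57 and 4.49 on phenobarbital, against 9.06, 8.78 and 9.11 on sucrose (20.1-fold lower). eloF, which lengthens female hydrocarbons, had 7.76, 7.94 and 7.16 on phenobarbital and 10.24, 10.01 and 9.99 on sucrose (5.5-fold lower). The calls for bond, another male pheromone elongase, and Elovl7 were lost without sucrose replicate 1 or 3 or phenobarbital replicate 2 or 3, and that for Elovl7 also without phenobarbital replicate 1. Elo68alpha and bond are linked to the male; the lower accessory gland and testis levels of the phenobarbital arrays stand beside their falls, and the part of those levels was not tested.

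Of 13 genes of fatty acid oxidation 5 rose, and the one that fell, Hacd1, belongs to elongation by its known enzyme activity. The peroxisomal oxidase Acox57D-p had 10.89, 10.88 and 10.87 on phenobarbital, against 8.37, 8.48 and 8.71 on sucrose (5.14-fold, adjusted p = 2.27e-05). The thiolase yip2 and the peroxisomal Mfe2 rose 2.31-fold and 1.7-fold, and CPT2, a carnitine transferase inside mitochondria, passed at 1.55-fold and lost its call without sucrose replicate 1 or 2 or any phenobarbital array. The carnitine transferase that admits fatty acids to mitochondria, whd, changed by 0.56 ± 0.09 (limma adjusted p = 0.00449). It was not called only because it lay just under the 1.5-fold minimum, and CPT2 changed by a similar 0.63 ± 0.13. Of 8 genes of lipid transport in the hemolymph 4 rose: the lipophorin receptor LpR2 (1.42 ± 0.19), the lipid transfer particle Apoltp (1.19 ± 0.13), the lipocalin NLaz (0.84 ± 0.13) and Mtp (0.63 ± 0.09). LpR1 fell by 0.61 on one probe set but not on another, and not without sucrose replicate 1.

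Hormone genes changed singly. Jheh2, a juvenile hormone epoxide hydrolase, had 14.66, 14.64 and 14.55 on phenobarbital, against 11.85, 11.78 and 11.95 on sucrose (6.78-fold, adjusted p = 4.09e-08). The juvenile hormone-inducible JhI-26 rose 2.95-fold, and Kr-h1, the transcription factor induced by the hormone, fell 1.7-fold. The receptors gce (1.08 ± 0.19) and Met (0.04 ± 0.11) differed in call, the first having a second, dim probe set without one. None of 20 nuclear receptors was called by limma, with changes between -0.28 and 0.53; EcR changed by 0.07 ± 0.06 and the dim Hr38 by -0.02 ± 0.05. None of 16 GABA receptor and ion channel genes, the protein class through which barbiturates act on nerves, was called, though 10 were dim in whole flies. Rdl, the main GABA receptor subunit, stood at a dim 3.52, 3.50 and 3.52 on phenobarbital and 3.84, 3.53 and 3.47 on sucrose, with overlapping groups. Of its relatives Grd (0.00 ± 0.02) was dim and Lcch3 (-0.23 ± 0.15) was above the limit. No clock gene of 9 was called either. At an unadjusted limma p under 0.05 the 3 lists held 2, 2 and 3 genes, beside 2859 of all 11982 named genes.

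Of 5 Turandot genes, whose products appear in the hemolymph after stress, TotC rose and 4 were dim. It had 12.31, 12.56 and 11.69 on phenobarbital, against 10.85, 9.56 and 8.76 on sucrose, with a wide spread (2.47 ± 0.61, adjusted p = 0.0478). The call was lost in 14 other settings, among them without sucrose replicate 2 or 3 or any phenobarbital array. Of 22 genes of protein folding in the endoplasmic reticulum only Sil1 rose (1.25 ± 0.20), and the chaperone Hsc70-3 changed by 0.41 ± 0.08, under 1.5-fold. Sil1 alone made up 4.55% of that list, close to the 4.27% of all named genes that rose. Limma called none of 15 chaperones, 18 metal-handling genes, 32 chitin and peritrophic matrix genes, 19 ribosome biogenesis genes, 3 lysozymes, 26 proteasome subunits, 33 cytosolic ribosomal proteins, 31 proton pump subunits or 74 oxidative phosphorylation subunits. At an unadjusted p under 0.05 these lists held 4, 5, 4, 0, 1, 16, 1, 5 and 10 genes. Over all 11982 named genes, 2859 had such a p. The proteasome subunits nonetheless lay on one side, with all 26 changes between 0.10 and 0.40 and a median of 0.25.

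Immune genes showed scattered changes. Of 18 antimicrobial peptide genes 2 rose and 2 fell. Mtk, the gene of metchnikowin, had 10.90, 11.71 and 10.32 on phenobarbital, against 8.49, 7.78 and 7.20 on sucrose, without overlap but with a spread above 1 log2 unit in each group (3.15 ± 0.56, adjusted p = 0.00936). Its call was lost without both arrays lowest in male markers, and no antimicrobial peptide gene rose in that check. Drsl5, a gene of the drosomycin family, fell 2.73-fold. The calls of BomS6 and Drsl4 were each lost in most repeats without one mutant array. PGRP-LB, an amidase that degrades peptidoglycan and damps immune signalling, had 8.87, 8.89 and 8.86 on phenobarbital and 7.17, 6.82 and 7.25 on sucrose (3.46-fold, adjusted p = 8.83e-05), and PGRP-LA rose 1.62-fold but not without both arrays lowest in male markers. Of 10 Nimrod receptor genes, a family of blood cell and secreted proteins listed after the values were seen, 4 neighbours rose, NimB3 (1.28 ± 0.27), NimB4 (1.15 ± 0.21), NimB5 (0.91 ± 0.19) and NimB2 (0.61 ± 0.15). Each lost its call without sucrose replicate 1, and all but NimB4 also in other repeats without a mutant array. Among 47 odorant-binding protein genes 3 rose and 4 fell, led by Obp56e (1.58 ± 0.09) and Obp56g (-1.68 ± 0.29). These were 6.38% and 8.51% of the list, beside 4.27% and 2.20% of all named genes. On both diets 21 of the 47 were dim. Obp99c (1.49 ± 0.14) and Obp56d (0.72 ± 0.12) rose too, and Obp69a (-1.08 ± 0.23), Obp49a (-0.86 ± 0.18) and Obp19d (-0.75 ± 0.10) fell. The calls of Obp69a and Obp49a were lost without sucrose replicate 1 or 3 or phenobarbital replicate 2 or 3, and that of Obp56d without both arrays lowest in male markers. Obp56g, also a protein of seminal fluid, fell with the male markers, and the part of those markers was not tested. The call for Obp56g was lost on the 6 mutant arrays alone.

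Among reproductive tissues, 11 of 28 accessory gland genes fell and none rose, with a median change of -1.24. The count was 2 without sucrose replicate 1, 2 without sucrose replicate 3 and 14 without sucrose replicate 2, so single arrays set it. Sfp24Bb had 11.52, 11.01 and 9.61 on phenobarbital, against 13.47, 13.05 and 13.57 on sucrose (6.28-fold lower, adjusted p = 0.00625). Its call was lost on the 6 mutant arrays alone. Acp53C14c had 8.32, 7.96 and 7.28 on phenobarbital and 10.33, 9.52 and 10.72 on sucrose (5.06-fold lower). Acp76A and Acp26Aa were 4.71-fold and 3.69-fold lower and lost their calls without sucrose replicate 1 or 3 or phenobarbital replicate 3, and Acp26Aa also without phenobarbital replicate 2. In Sfp24Bb and Acp53C14c phenobarbital replicate 3 was the lowest array. None of the 28 testis genes was called by limma (median change -0.71). At an unadjusted p under 0.05 there were 14 of them, beside 2859 of all 11982 named genes. Of 17 eggshell genes 2 fell, and all 17 changes were below 0. Vm26Aa, a vitelline membrane gene, had a dim 3.32, 3.89 and 3.89 on phenobarbital, against 13.05, 11.72 and 10.86 on sucrose, the largest fall of all (289-fold, adjusted p = 0.000237). Vm34Ca had 3.33, 4.61 and 4.59 on phenobarbital and 13.04, 12.30 and 10.75 on sucrose (231-fold lower). The sucrose arrays of both genes spread over more than 2 log2 units and still lay far above the treated arrays. The chorion gene Cp36 had 2.66, 12.56 and 12.00 on phenobarbital and 11.16, 12.68 and 10.19 on sucrose, and its groups overlapped because phenobarbital replicate 2 and 3 stayed high. In phenobarbital replicate 1, 13 of the 17 eggshell genes were dim. The yolk protein genes Yp1 (0.07 ± 0.09), Yp2 (-0.54 ± 0.21) and Yp3 (0.15 ± 0.17) were not called. The female-biased satiety gene fit had a dim 2.90, 2.79 and 2.74 on phenobarbital, against 9.64, 9.36 and 9.59 on sucrose, and was 105-fold lower (adjusted p = 3.6e-05).

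Of flight muscle, with 18 marker genes, none was called by limma. At an unadjusted p under 0.05 there were 3 of them, beside 2859 of all 11982 named genes. Of 16 photoreceptor genes only ninaB fell (-1.08 ± 0.18). In the Malpighian tubule, the fly's kidney, the solute transporter gene salt rose 3.43-fold and the potassium channel gene Irk3 fell 1.8-fold, the 2 calls among 14 genes. The basement membrane component Ndg rose 3.48-fold while the collagen vkg fell 1.72-fold. The laminin LanA fell 1.65-fold and lost its call when any one mutant array was left out.

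Of 105 cuticle protein genes, 84 of them dim on both diets, Cpr67Fb (2.54 ± 0.38) and Cpr73D (1.11 ± 0.27) rose and none fell. The share of rises was 1.9%, below the 4.27% of all named genes, and Cpr73D lost its call when any one mutant array was left out. In the takeout family of carriers of small lipophilic molecules, with 12 genes, Jhbp6 rose (1.41 ± 0.25) and Jhbp3 fell (-1.29 ± 0.17). Of 9 genes of sterol transport Npc2g and Npc2h fell, by 1.09 and 1.0 on the log2 scale. Neither call held without both arrays lowest in male markers, and that of Npc2h was lost also without sucrose replicate 1 or 3 or phenobarbital replicate 3.

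Several of the strongest responders belong to none of these groups. hll, named as a relative of the acyl-CoA synthetase bubblegum, had 9.08, 9.22 and 8.64 on phenobarbital, against a dim 2.5, 3.0 and 2.32 on sucrose (83.1-fold, adjusted p = 3.93e-06). CG34040 had 12.42, 12.52 and 12.37 on phenobarbital and 6.41, 5.21 and 5.49 on sucrose (106-fold), and its other probe set was called too. CG14957 had 9.07, 9.38 and 9.20 on phenobarbital, against a dim 3.01, 2.86 and 3.16 on sucrose (73.8-fold), and acs rose 34.3-fold. Downwards, CG6788 had a dim 2.84, 2.98 and 2.42 on phenobarbital, against 7.31, 7.77 and 7.54 on sucrose (27.8-fold lower), and the alkaline phosphatase gene phu a dim 2.75, 3.08 and 2.74 on phenobarbital, against 7.32, 7.18 and 7.49 on sucrose. CG7882, CG2663, CG6660, CG3348 and CG9837 were 17.4-fold, 17.1-fold, 15.9-fold, 14.6-fold and 13.7-fold lower. CG3348 remained well above the dim limit on phenobarbital, with 6.55, 6.73 and 6.31, against 10.51, 10.21 and 10.47 on sucrose, and CG2663 and CG9837 were dim there. The annotation used here gives the numbered genes no role.

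Some genes that changed the same way were neighbours on the chromosome. With the measured genes placed in chromosomal order, 133 of the 512 risen genes (26%) stood next to another risen gene, where 8.21% of all 11899 ordered genes had a risen gene beside them. Of 263 fallen genes that could be placed, 62 (23.6%) stood next to another, where 4.28% of ordered genes had a fallen gene beside them. Runs of at least 3 neighbours included Mal-A1 to Mal-A4 on 2R, with changes between 2.09 and 4.70, and Mal-A6 to Mal-A8 close by. Cyp6a9, Cyp6a20, Cyp6a21 and Cyp6a8 formed a run on 2R in which changes ran from 0.73 to 9.79, so adjacent genes differed widely in size. GstE5, GstE6, GstE7 and GstE9 on 2R changed by 1.55 to 4.90, and GstD1, GstD2 and GstD3 on 3R by 0.92 to 7.47. The 5 falling runs were CG15255, Semp1 and CG15254 on 2L, CG5770, CG5767 and CG34005 on 2R, Jon65Aiv to Jon65Ai on 3L, 4 genes of the Acp53 cluster on 2R, and eloF with CG16904, CG9459 and CG9458 on 3R. Many of these neighbours are related by duplication, and probe sets of near-identical copies can share signal.

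No single gene passed the test of a difference between the mutant and the wild-type response. Limma called 0 of 18769 probe sets for the difference between the 2 responses, mutant minus wild type, where 624 (3.32%) had an unadjusted p under 0.05 and the smallest adjusted p was 0.0723. Other settings called up to 15, the most without wild-type sucrose replicate 3. Of the 512 genes that rose in the mutant, 509 had the same sign in wild type and 362 also rose there, where 379 named genes rose in all (3.16%). Of the 264 that fell in the mutant, all 264 had the same sign in wild type and 204 also fell there, of 326 in all (2.72%). Cyp6a8 changed by 9.79 ± 0.11 in the mutant and by 9.41 ± 0.11 in wild type, a difference of 0.38 ± 0.15 (SE; adjusted p = 0.841). For Mal-B1 the changes were 4.21 ± 0.21 and 3.61 ± 0.21, in the mutant first, and for Gnmt 6.0 ± 0.45 and 6.48 ± 0.45 in the same order.

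The genes nearest to a difference were few. GstD2 changed by 7.47 ± 0.24 in the mutant and by 9.52 ± 0.24 in wild type, with a difference of -2.05 ± 0.34 (adjusted p = 0.336). On phenobarbital it reached 12.82 ± 0.17 in the mutant and 12.69 ± 0.11 in wild type, while on sucrose it was 5.35 ± 0.41 in the mutant and a dim 3.17 ± 0.42 in wild type. Jon65Aii changed by -4.41 ± 0.19 in the mutant and by -2.29 ± 0.19 in wild type, a difference of -2.12 ± 0.26 (adjusted p = 0.112). Npc2d, of the sterol-binding NPC2 family, was dim on all mutant arrays of both diets, so it had no level to change there, whereas it changed by -6.35 ± 0.48 in wild type (difference 6.35 ± 0.69, adjusted p = 0.0723). MFS1 was under the dim limit on all mutant arrays, and its difference was 2.44 ± 0.32 (adjusted p = 0.129). For Cpr66D, dim in both mutant groups, the difference was 0.59 ± 0.06 (adjusted p = 0.0723). Lsp2, named for its rise, gave 6.0 ± 0.80 in the mutant and 2.12 ± 0.80 in wild type, with a difference of 3.88 ± 1.14 (adjusted p = 0.841). None of these passed the threshold, which does not show that the responses were alike.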

How the data were processed

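Per the submitters' processing notes, the authors made the deposited intensity values with GCRMA, a method that removes background, puts arrays on one scale and combines each set's probes into 1 value; the version used is not stated there. The deposited intensities lay between 2.46 and 52446 and were read as linear, and log2 was taken here with no further scaling. Median intensity per array was 38.5 to 47.5, and the number of arrays limits the precision.

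Groups came from the sample titles. Limma 3.58.1, run in R 4.3.3, fitted 1 mean per group over the 12 arrays, and its moderated tests had 8.8 degrees of freedom. All 18769 probe sets were tested, of which 13647 named 1 gene. Each gene is described by its brightest probe set. Of the called probe sets, 73 named several genes or none and enter no gene count. Gene names and gene order came from the platform table and the gene table of assembly Release 6 plus ISO1 MT. The order rests on gene positions, and no sequences were used.

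The members and lists were chosen with earlier results of these data known. Genes that the annotation knows by number only were kept out of the lists after the values were seen, except EcKL genes. By rule, the text names Hr96, the 15 largest rises and falls, at most 4 called members of each list each way, and key members. It also names genes with some of the smallest p-values of the difference. These were Npc2d, Cpr66D and MFS1 with a positive difference, and GstD2 and Jon65Aii with a negative one. Other genes, and members given for contrast within a list, were picked once their values had been seen. The fit was tested on simulated data with independent noise for each probe set and fewer changed probe sets than were called here. There it called 69% of 2-fold and 90% of 4-fold changes of this comparison among 18769 probe sets, with 7 false calls. Array differences shared by many genes, such as those in male markers, were not simulated. Other fold limits, priors, normalization, filters, an added 16 before log2, a replicate block and leaving out arrays were tried. The labels do not say that a replicate number is a shared batch, so same-numbered arrays were not treated as pairs. The correlation of their deviations exceeded 0.1 in 7 of 18 pairs, which does not decide the question. Figures were drawn with matplotlib 3.10.9 in Python 3.11.15.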

Additional observations from a re-analysis of the deposited data

How the results depend on the processing

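The sign of every named call held in all alternatives run. Calls of single genes were followed through 19 alternatives, all at the 1.5-fold limit. Of 189 called genes that the rule names, 141 kept their call under all 19 and 48 lost it in at least one. Other fold limits do not enter this count. Without both arrays lowest in male markers, 34 of the 189 lost their call. Mtk, Mdr49, Cyp12c1, Tdh, Faa, Nepl18, Tret1-1, gce and vkg were among these and kept it under the other alternatives. Probe sets called higher in the mutant numbered 579, or 357 at a 2-fold minimum, 574 with a trend and robust prior, 550 with quantile normalization, 627 without dim probe sets, 565 on the 6 mutant arrays alone and 532 with 16 added to the intensity; without one array they ranged from 474 to 580. Probe sets called lower numbered 288, or 321 with the trend and robust prior, 307 with quantile normalization, 389 without dim probe sets, 247 on the mutant arrays alone and 260 with 16 added, and ranged from 176 to 333 without one array. The lowest values came without mutant sucrose replicates 1 (186) and 3 (176) and without mutant phenobarbital replicate 3 (177); the cause was not tested. The difference between the responses gave 0 calls, 7 with the trend and robust prior, 7 without dim probe sets, 2 with 16 added, and 0 to 15 without one array.

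With the replicate number as a block, 532 probe sets were called higher and 231 lower, and 0 for the difference. Correlations of same-numbered arrays ran from -0.698 to 0.683. They cannot decide whether such arrays shared a batch, because tissue content can also move arrays together. Small changes are the limit of 3 arrays per group, and dim genes the limit of the signal.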

Other observations

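Of the 512 genes that rose in the mutant on phenobarbital, 322 belong to none of the gene lists counted here, and of the 264 that fell, 195 do. The annotation used here gives many of them a number and no name. On chromosome arm 2L, 2 runs of such neighbours rose together, CG33282 with CG3285 and CG15408 by 0.82 to 4.76 on the log2 scale, and CG33307 with CG8997 and CG7916 by 0.77 to 2.66.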
